A study of Mus musculus with 2 samples.

Results

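The KMT2D methyltransferase complex was followed through the 10 genes that encode its enzymes and subunits: Kmt2d, its paralog Kmt2c, the subunits Kdm6a, Paxip1, Ncoa6 and Pagr1a that these enzymes do not share with the rest of their family, and the core subunits Ash2l, Rbbp5, Wdr5 and Dpy30. The genes were taken by symbol from the deposited table, and all 10 were found among its 24319 named genes. RNA had been sequenced from nuclei of the dentate gyrus, the region of the hippocampus where neural stem cells keep making granule neurons in the adult. The mice were 8 weeks old and either wild-type or heterozygous for a mutant Kmt2d allele (Kmt2d +/mut, given in the design text as Kmt2d+/Bgeo). All had received 150 mg/kg of EdU, a thymidine analogue taken up in S phase, 16 h before dissection, and EdU-positive nuclei were sorted. Each genotype gave 1 library of 500 nuclei pooled from 3 mice, so no difference between the genotypes has a replicate check and no test between them was made here.

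KMT2D places methyl groups on lysine 4 of histone H3 (H3K4), chiefly the single methyl mark of enhancers, and KMT2C does the same work at overlapping sites. The catalytic SET domain of either enzyme is weakly active alone and is stimulated by a core of WDR5, RBBP5, ASH2L and DPY30, which also serves the other active H3K4 methyltransferases of the family. The other subunits are particular to the KMT2C and KMT2D complexes, and among them KDM6A removes methyl groups from lysine 27 of histone H3 (H3K27), a repressive mark. In people, loss of 1 copy of KMT2D causes Kabuki syndrome type 1, in which growth, facial development and cognition are affected.

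Values are FPKM, fragments scaled to transcript length and library size, as the authors deposited them. Since FPKM moves in steps of 1 fragment, the steps between low values gave an estimate of depth: about 218000 fragments for wild-type and 216000 for Kmt2d +/mut, on the assumption that FPKM was scaled to the total of the library itself. On a transcript of 1 kb after the end correction, 1 fragment was worth 4.58 and 4.63 FPKM. The fragments behind each gene, and 95% intervals from them, are estimates from these steps and the gene's longest coding transcript. They cover counting error only, because copies made by PCR cannot be told from separate RNA molecules and the libraries were amplified for 22 and then 20 cycles. In pooled nuclei, fewer cells expressing a gene and less RNA per cell cannot be told apart.

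Of the cell type markers, 5 of 6 for the dentate granule lineage were read in at least 1 library, and Prox1 was listed at 0 in both. Their FPKM summed to 1317 in wild-type nuclei and 1145 in Kmt2d +/mut, most of it from Nnat at 886 and 858. The sums therefore say little about the other markers. Neurod1 stood at 92.5 FPKM in wild-type nuclei and 41.9 in Kmt2d +/mut, and C1ql2 at 161 and 193. Of this list the authors' deposited table calls Dcx, a marker of immature neurons, higher (listed at 0 and read at 51.1 FPKM, q-value 0.0263) and Calb1, a marker of mature granule neurons, lower (178 FPKM and listed at 0, q-value 0.029). Among 5 genes of cycling cells, Pcna and Mcm2 were listed at 0 in both libraries. The sum was 23.1 in each, but from different genes: Mki67 stood at 0.913 FPKM in wild-type nuclei and 23.1 in Kmt2d +/mut, whereas Cdk1 (20.4) and Top2a (1.80) were listed at 0 in Kmt2d +/mut. The sums were 593 and 969.6 for 6 radial glia and astrocyte markers (Nes at 0 in both), 742 and 1282 for 6 oligodendrocyte lineage markers (Mog at 0 in both), and 59.8 and 85.9 for 4 microglial markers (Cx3cr1 and Tmem119 at 0 in both). All 3 endothelial markers were listed at 0. The glial sums were higher in the Kmt2d +/mut library, although single markers went either way: Olig2 was listed at 0 in wild-type nuclei and read at 77.8 FPKM in Kmt2d +/mut, which the authors' deposited table calls higher (q-value 0.029), and Gfap (54.6) and P2ry12 (40.2) were read in wild-type nuclei alone. The part of these cell types in the values of the complex was not tested.

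**Figure D1:**
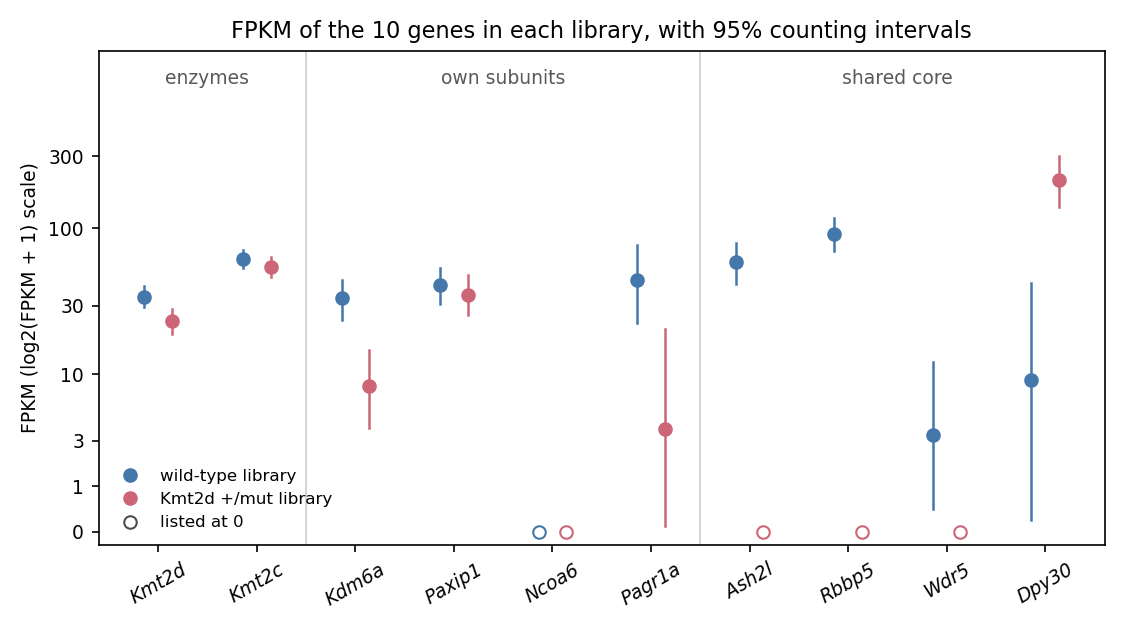
FPKM of each of the 10 genes in the wild-type library (blue) and the Kmt2d +/mut library (red), on a log2(FPKM + 1) scale. Points are the deposited values, open points are genes listed at 0, and bars, drawn for genes above 0, are 95% intervals of the estimated fragments, which cover counting error only. Dpy30 is the 1 gene whose Kmt2d +/mut point, at 211 FPKM, lies above its wild-type point, at 9.04.

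Both enzymes were read in both libraries, and the largest differences lay among the subunits. Of the 10 genes, 9 reached an FPKM of 1 in at least 1 library, and 8 of these 9 had the lower value in Kmt2d +/mut, against 51.6% of all 7903 genes over that minimum. On the scale of log2((Kmt2d +/mut FPKM + 1)/(wild-type FPKM + 1)), 5 members were at least 2-fold lower, where the share over all genes was 44.3%, 1 was at least 2-fold higher, where it was 40.5%, and 3 were within 2-fold, where it was 15.3%. The shares of all genes past 2-fold in either direction were therefore large, and the members' 5 of 9 lies near that background. The median log2 ratio was -1.93 for the 9 members and -0.23 for all genes over the minimum. Among the 6 members above 0 in both libraries, 5 had the lower value in Kmt2d +/mut, against 48.8% of the 3191 genes of that kind. Of these 6, 2 were at least 2-fold lower (30.6% of such genes), 1 at least 2-fold higher (31.4%) and 3 within 2-fold (38.1%). Their median log2 ratio was -0.38, and that of the 3191 genes was 0.02, so the member median depends on which genes are kept.

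**Figure D2:**
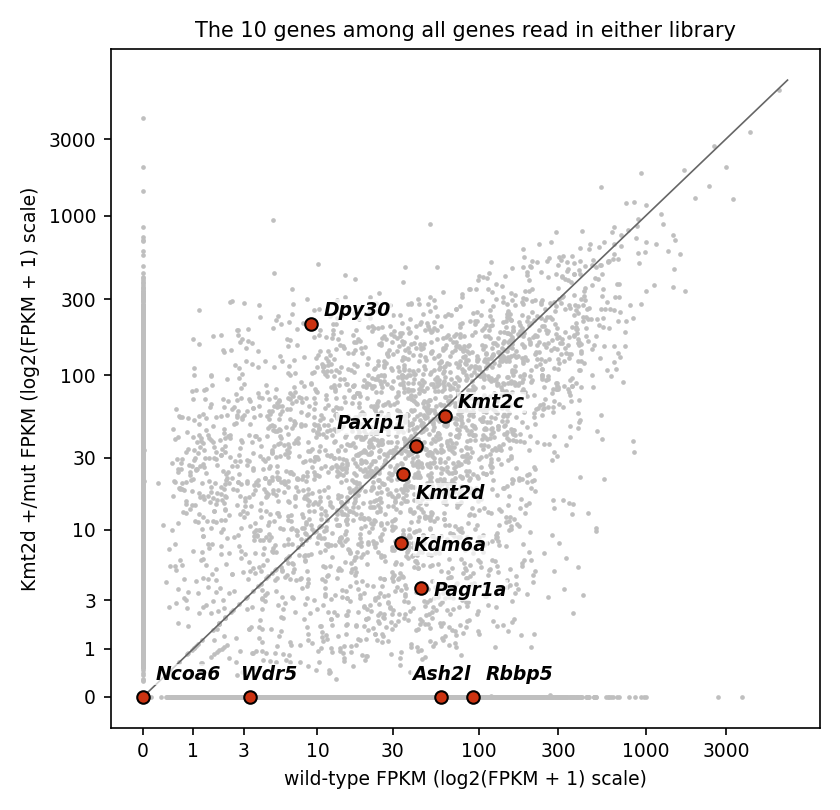
Wild-type FPKM (horizontal) against Kmt2d +/mut FPKM (vertical) for every gene read in either library, both on a log2(FPKM + 1) scale, with the 10 genes in red and equal values on the diagonal line. Kmt2c, Paxip1 and Kmt2d lie next to the diagonal, Ash2l, Rbbp5 and Wdr5 on the lower edge where Kmt2d +/mut is listed at 0, and Dpy30 far above the diagonal.

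Kmt2d itself, the gene targeted in these mice, lies on chromosome 15 of mm10 from 98831669 to 98871204 on the minus strand, and its longest coding transcript has 55 exons and 19823 bases. It was read at 34.7 FPKM in wild-type nuclei and 23.5 FPKM in those of Kmt2d +/mut mice. These values rest on an estimated 149 and 100 fragments, more than for any other member but Kmt2c, or on 76.9 and 51.6 with the median length of its coding transcripts in place of the longest. The Kmt2d +/mut level was 67.8% of wild-type, with a 95% counting interval of the ratio from 0.52 to 0.879. That interval does not include equal levels, but it takes the longest transcript and counts each fragment as separate. None was computed with the fewer fragments of the median length, and PCR copies or variation between libraries are not covered. Kmt2d was nonetheless among the 38.1% of genes read in both libraries that lay within 2-fold, while the rest differed by more. When the libraries were brought to the same summed FPKM, the ratio was 0.768 with an interval from 0.59 to 0.996. Bgeo is a fused reporter and selection gene used in gene traps, and the labels do not give the place of its insertion. Gene-level FPKM does not show which exons the fragments came from, so transcript kept from the mutant allele is counted with the intact one and the value does not check the genotype labels. Kmt2d has no test in the authors' deposited table, whereas Ash2l and Dpy30, with fewer estimated fragments, were tested. The rule that decided which genes were tested is not stated in the submitters' notes. Over the 2 libraries the genes with the nearest values, by distance in log2(FPKM + 1), were BC017158 at 34.0 and 23.0 FPKM, Fbxw11 at 32.9 and 24.2, and Osbpl6 at 33.9 and 25.3, wild-type first.

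Kmt2c, on chromosome 5 from 25271798 to 25498783 on the minus strand with 59 exons in its longest transcript of 14967 bases, was the higher of the pair of enzymes in each library. It was read at 62.7 FPKM in wild-type nuclei and 55.3 in Kmt2d +/mut, from an estimated 202 and 176 fragments. The ratio of 0.882 had a counting interval from 0.714 to 1.08, which includes equal levels. In the authors' deposited table Kmt2c was tested and not called, with a q-value of 0.925. Levels within 1 library do not depend on how the libraries were scaled to each other, and Kmt2d stood at 0.554 of the Kmt2c FPKM in wild-type nuclei and 0.425 in Kmt2d +/mut. The ratio between these was 0.769, with an exact counting interval from 0.549 to 1.08, so a difference between the paralogs was not detectable at this depth. The promoter windows of both, from RefSeq on GRCm38.p6 (the assembly behind mm10), are given on the gene's strand from 250 bases before the start of transcription to 50 after it, to show the sequence at the locus that carries the mutation beside its paralog. Capitals mark CpG dinucleotides, whose clusters mark the promoters of most widely expressed genes. They are chr15:98871156-98871455 and chr5:25498734-25499033, both on the minus strand.
Kmt2d: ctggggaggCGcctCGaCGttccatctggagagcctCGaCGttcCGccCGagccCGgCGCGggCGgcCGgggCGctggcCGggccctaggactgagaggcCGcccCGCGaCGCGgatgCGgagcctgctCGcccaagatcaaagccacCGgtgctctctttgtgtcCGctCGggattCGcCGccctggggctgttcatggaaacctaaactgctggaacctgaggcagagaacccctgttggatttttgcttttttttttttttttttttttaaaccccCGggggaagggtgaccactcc
Kmt2c: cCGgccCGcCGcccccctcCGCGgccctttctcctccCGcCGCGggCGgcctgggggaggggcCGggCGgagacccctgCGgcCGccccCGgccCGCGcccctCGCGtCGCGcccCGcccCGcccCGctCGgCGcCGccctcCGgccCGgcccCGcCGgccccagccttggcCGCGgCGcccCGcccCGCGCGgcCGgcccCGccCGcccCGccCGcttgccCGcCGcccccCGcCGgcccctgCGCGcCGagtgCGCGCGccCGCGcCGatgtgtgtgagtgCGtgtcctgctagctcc
The Kmt2d window held 27 CpG and the Kmt2c window 56, more than in 84.5% and 99.8% of 32851 such windows of the genome, whose median was 7. The GC box GGGCGG, bound by factors of the SP family, occurred 4 times in the first and 12 times in the second, counting both strands and overlaps, and 35.7% of all windows hold it at least once. TATAAA was in neither window, and 13.6% of all windows hold it.

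Of the 4 subunits particular to the KMT2C and KMT2D complexes, 3 were read, each in both libraries. All 3 had the lower value in Kmt2d +/mut, as did 48.8% of all genes above 0 in both libraries. The differences ran from small, for Paxip1, to large, for Pagr1a, whose Kmt2d +/mut value rests on about 1 fragment. Paxip1, a BRCT-domain adaptor with roles at enhancers and in DNA repair, lies on chromosome 5 from 27740080 to 27791691 and has 1 annotated coding transcript, of 5850 bases. It was read at 41.5 FPKM in wild-type nuclei and 35.6 in Kmt2d +/mut, from an estimated 51 and 44 fragments. Its ratio of 0.858 had a counting interval from 0.568 to 1.33, which includes equal levels. Against Paxip1, Kmt2d stood at 0.835 in wild-type nuclei and 0.66 in Kmt2d +/mut, and the ratio between these was 0.791 with an interval from 0.47 to 1.29.

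Kdm6a, the H3K27 demethylase, is X-linked (18162575 to 18279936) and its loss in people causes Kabuki syndrome type 2. It was read at 33.8 FPKM in wild-type, almost the level of Kmt2d, and at 8.12 in Kmt2d +/mut, from an estimated 42 and 10 fragments. The Kmt2d +/mut level was 24.0% of wild-type, with a counting interval of the ratio from 0.108 to 0.487, and 30.6% of genes read in both libraries were at least 2-fold lower. Kmt2d stood at 1.02 of the Kdm6a FPKM in wild-type nuclei and at 2.89 in Kmt2d +/mut. The ratio between these was 2.82, with an interval from 1.31 to 6.58 that does not include 1. That interval takes the longest transcripts and counts each fragment as separate. With the median length of its coding transcripts, Kdm6a had an estimated 22.4 and 5.32 fragments, wild-type first. No interval was computed with these fewer fragments, and PCR copies or variation between libraries are not covered. Kdm6a, too, has no test in the authors' deposited table.

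Pagr1a encodes the partner of PAXIP1 (PA1). It lies on chromosome 7 from 127015033 to 127017352 and is short, with 1430 bases in its longest coding transcript. It was read at 44.8 FPKM in wild-type nuclei and 3.79 in Kmt2d +/mut, from an estimated 12 fragments and 1 fragment. The ratio was 0.0844, with a counting interval from 0.00197 to 0.568, which spans a wide range because 1 fragment decides it. The interval leaves out equal levels, but it takes the longest transcript. At the median length of the coding transcripts, the Pagr1a estimates fell to 3.6 for wild-type and 0.3 for Kmt2d +/mut. The latter is below 1 fragment and no interval was computed at that length, so a difference in Pagr1a is not established. The annotation places Pagr1b and Gm42742 over the same stretch on the same strand, and no values under those names were used here, so reads could be shared and the value is uncertain. Ncoa6, a coactivator of nuclear receptors on chromosome 2 (155390656 to 155473894), was listed at 0 in both libraries, as were 66.9% of all named genes. Whether a deposited 0 marks absent RNA or an estimate that failed was not tested. Genes used by nearly every cell were also listed at 0. Cox6b1, a subunit of cytochrome c oxidase, stood at 692 FPKM in wild-type nuclei and at a listed 0 in Kmt2d +/mut. Atp5j, a subunit of ATP synthase, stood at 601 FPKM and a listed 0 in the same order. These 2 genes were picked after their values were seen. No upper limit is given for a listed 0.

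The shared core was read unevenly, with 3 of its 4 genes listed at 0 in Kmt2d +/mut and none listed at 0 in wild-type. Over the 7903 genes that reached the minimum, the Kmt2d +/mut library lists 31.9% at 0 and the wild-type library 27.8%. Rbbp5, a WD-repeat protein that with ASH2L activates the SET domain, lies on chromosome 1 from 132477365 to 132505659 and had the highest wild-type level of the 10 genes. It stood at 92.1 FPKM in wild-type, from an estimated 64 fragments, and was listed at 0 in Kmt2d +/mut. Ash2l, the partner of RBBP5 in activating the SET domain, on chromosome 8 from 25815996 to 25847694, stood at 59.0 FPKM in wild-type, from an estimated 40 fragments, and was also listed at 0 in Kmt2d +/mut. Their wild-type counting intervals ran from 70.7 to 117 and from 42.0 to 80.1 FPKM, and no fold is given against a listed 0.

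The authors' deposited table calls Ash2l and Rbbp5 lower in Kmt2d +/mut, with p-values of 0.00165 and 0.00385 and a q-value of 0.029 for each. Of the 3249 genes it tested, 14.3% are called lower and 12.8% higher. Every call went to a gene listed at 0 in 1 library: of 750 tested genes listed at 0 in Kmt2d +/mut, 61.7% are called, and of 1826 tested genes above 0 in both libraries, 0 are called by Cuffdiff, with 2 at an unadjusted p-value under 0.05. A listed 0 opposite a level such as theirs was common, in a window of level and length chosen after their values were seen. Of 151 genes read at 50 to 100 FPKM in wild-type with a longest coding transcript of 3000 to 4000 bases, 41.1% were listed at 0 in Kmt2d +/mut, and of 169 genes chosen the same way in Kmt2d +/mut, 41.4% were listed at 0 in wild-type. Among genes of this level and length, such zeros thus stood at nearly the same share in either direction.

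**Figure D3:**
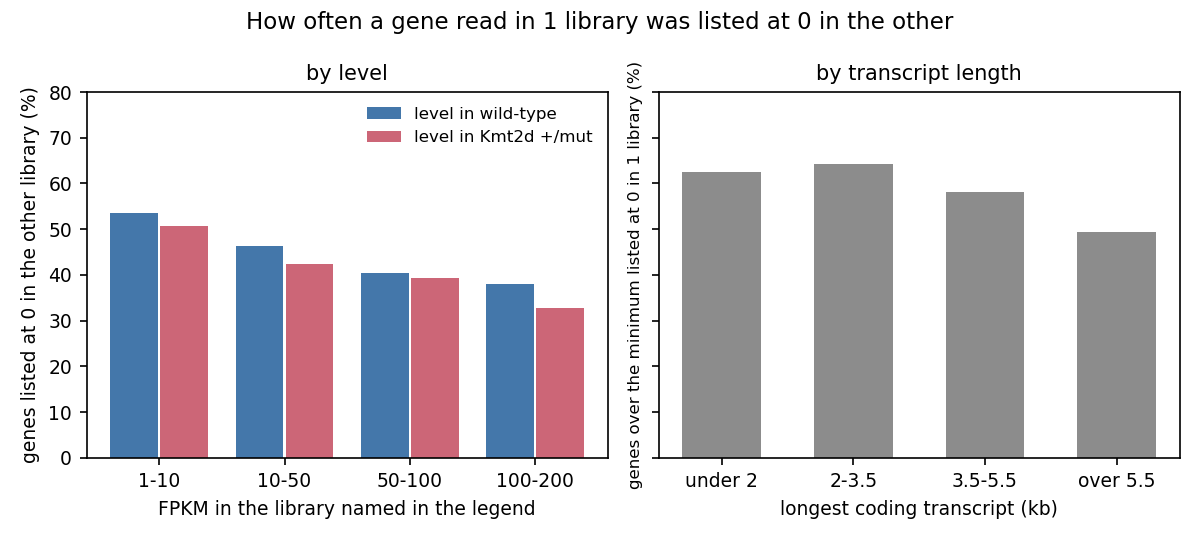
Left, of the genes whose FPKM in the library named in the legend fell in the window on the horizontal axis, the percentage listed at 0 in the other library; right, of genes over the minimum, the percentage listed at 0 in 1 library, by the length of the longest coding transcript in kb. At 50 to 100 FPKM in wild-type, the window of Ash2l, Rbbp5 and Kmt2c, 40.5% of 893 genes were listed at 0 in Kmt2d +/mut.

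Such zeros were least frequent among genes with the longest transcripts. Of genes over the minimum, 62.4% of 1610 with a longest coding transcript under 2000 bases were listed at 0 in 1 library, 64.3% of 2262 at 2000 to 3500 bases, 58.1% of 2022 at 3500 to 5500, and 49.3% of 1493 at 5500 or more. Of the members read in both libraries, Kmt2d, Kmt2c, Kdm6a and Paxip1 were over 5500 bases, whereas Pagr1a and Dpy30 were the shortest of all 10. Ncoa6, listed at 0 in both, was also long, at 7101 bases. The members listed at 0 in Kmt2d +/mut alone, Ash2l (3307 bases), Rbbp5 (3385) and Wdr5 (2890), fell in the class of 2000 to 3500. The part of length in the members' values was not tested.

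Wdr5, the WD-repeat protein that docks the core onto the enzyme, lies on chromosome 2 from 27515157 to 27536535. It was barely read, at 3.34 FPKM in wild-type from an estimated 2 fragments, and was listed at 0 in Kmt2d +/mut. A difference between the libraries was therefore not detectable at this depth.

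Dpy30, the small subunit that binds ASH2L and strengthens methylation, was the exception in direction. It lies on chromosome 17 from 74299474 to 74323944, and its longest coding transcript has 789 bases, the shortest of the 10 genes. It was read at 9.04 FPKM in wild-type nuclei and 211 in Kmt2d +/mut, where it stood above 92.9% of the genes read. The estimated fragments were 1 and 27, and the ratio of 23.3 had a counting interval from 4.49 to 1116. At least 2-fold higher values were found for 31.4% of genes read in both libraries. The interval does not include equal levels but does not fix the size of the difference, because the wild-type value rests on about 1 fragment. The authors' deposited table tested Dpy30 and did not call it, with a p-value of 0.421 and a q-value of 0.623. The RefSeq promoter windows of Rbbp5 (chr1:132477117-132477416, plus strand) and of a start of Dpy30 (chr17:74316384-74316683, minus strand) are given in the same form as above, for the core subunits that differed in opposite directions.
Rbbp5: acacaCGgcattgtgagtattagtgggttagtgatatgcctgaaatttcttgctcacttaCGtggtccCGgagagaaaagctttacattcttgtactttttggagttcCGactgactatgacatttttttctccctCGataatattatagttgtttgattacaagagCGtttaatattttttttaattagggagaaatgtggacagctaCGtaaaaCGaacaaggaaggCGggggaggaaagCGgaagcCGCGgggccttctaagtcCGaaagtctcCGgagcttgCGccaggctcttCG
Dpy30: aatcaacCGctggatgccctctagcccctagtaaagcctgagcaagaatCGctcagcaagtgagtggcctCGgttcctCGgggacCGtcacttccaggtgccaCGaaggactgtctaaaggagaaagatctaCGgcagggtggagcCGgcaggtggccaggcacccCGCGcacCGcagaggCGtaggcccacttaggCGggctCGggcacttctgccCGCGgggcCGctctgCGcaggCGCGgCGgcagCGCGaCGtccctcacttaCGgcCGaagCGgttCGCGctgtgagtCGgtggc
The Rbbp5 window held 16 CpG and no GGGCGG. RefSeq gives 4 starts for Dpy30, of which the outermost window held 1 CpG and the other 3 held 30, 34 and 39, the first of these being the one shown. Of the 12 windows of the members, those of the partners Paxip1 and Pagr1a held GCATGCG, the core of the motif of NRF1, a factor of housekeeping promoters. It gave 2 and 4 matches in them, counting both strands and overlaps, and 3.58% of all windows hold it. Each place reads CGCATGCG, which holds the core on both strands, so each place counts as 2 matches. Of the 10 genes, 9 had a window in the RefSeq table. No letters found or missing here show that a factor binds.

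The rest of the H3K4 methylation machinery held genes that were lower and genes that were higher in Kmt2d +/mut. Of 19 genes in 3 lists (other enzymes of the family, subunits of their complexes, and H3K4 demethylases), 16 were over the minimum. The lower group past 2-fold held 9 of them (44.3% of all genes) and the higher group 4 (40.5%), with 3 between. With the libraries at the same summed FPKM, the lower group held 7 and the higher group 4. Among the 10 above 0 in both libraries the groups were close in size, 4 lower and 3 higher. The summed FPKM of these 3 lists was higher in Kmt2d +/mut, 312 in wild-type nuclei and 640 in Kmt2d +/mut, most of the latter from Psip1 and Kdm1a. The lists for KDM6 paralogs with acetyltransferases and for PRC2, which act on other histone marks, held 8 genes. Of these, 5 were over the minimum and all 5 were at least 2-fold higher (40.5% of all genes). However, 3 of the 5 were listed at 0 in wild-type and only 2 were above 0 in both libraries. With a pseudocount of 5, 3 stayed at least 2-fold higher. The authors' deposited table tested only 4 of these 27 genes (Kmt2e, Psip1, Kdm1a and Ezh2). It called 0 by Cuffdiff, 0 also at an unadjusted p-value under 0.05. Kmt2e, Psip1 and Kdm1a were above 0 in both libraries, where 0 of 1826 tested genes are called, and only Ezh2 was listed at 0 in 1 library. The 27% called of all 3249 genes tested is therefore no measure for these 4. Among the other enzymes of the family, 4 of 5 were read in both libraries, 2 at least 2-fold lower and 1 higher. Kmt2e, a SET-domain relative, stood at 70.9 FPKM in wild-type nuclei and 32.4 in Kmt2d +/mut, and Kmt2b at 0.545 and 21.03. Subunits of the other family complexes numbered 7 of 8 over the minimum, 4 lower and 2 higher. In Kmt2d +/mut 4 of the 7 were listed at 0, as were 31.9% of all genes over the minimum. Psip1, the chromatin tether of the KMT2A complex, was the highest of these subunits at 6.87 FPKM in wild-type nuclei and 279 in Kmt2d +/mut. Wdr82, a subunit of the SETD1 complexes, stood at 42.8 and 35.6.

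Of 6 H3K4 demethylases, which remove the mark, 5 were over the minimum, 3 at least 2-fold lower and 1 higher. Kdm1a stood at 14.4 FPKM in wild-type nuclei and 241 in Kmt2d +/mut, a pair of values close to that of Dpy30, and Kdm5a at 34.3 and 4.67. The authors' deposited table gives Kdm1a a q-value of 0.582. Of 4 KDM6 paralogs and enhancer acetyltransferases, 3 were over the minimum and all 3 at least 2-fold higher (40.5% of all genes), 1 of them from a listed 0. The acetyltransferase gene Ep300 stood at 7.38 and 21.9 FPKM, and Kdm6b, the autosomal relative of Kdm6a, at 0.7 and 5.67. Of the 4 genes of PRC2, which places the H3K27 methyl mark that KDM6A removes, Ezh2 at 50.6 FPKM and Suz12 at 14.5 FPKM were read in Kmt2d +/mut against a listed 0 in wild-type, and Ezh1 and Eed were listed at 0 in both. Ezh2 had a q-value of 0.369 in the authors' deposited table.

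**Figure D4:**
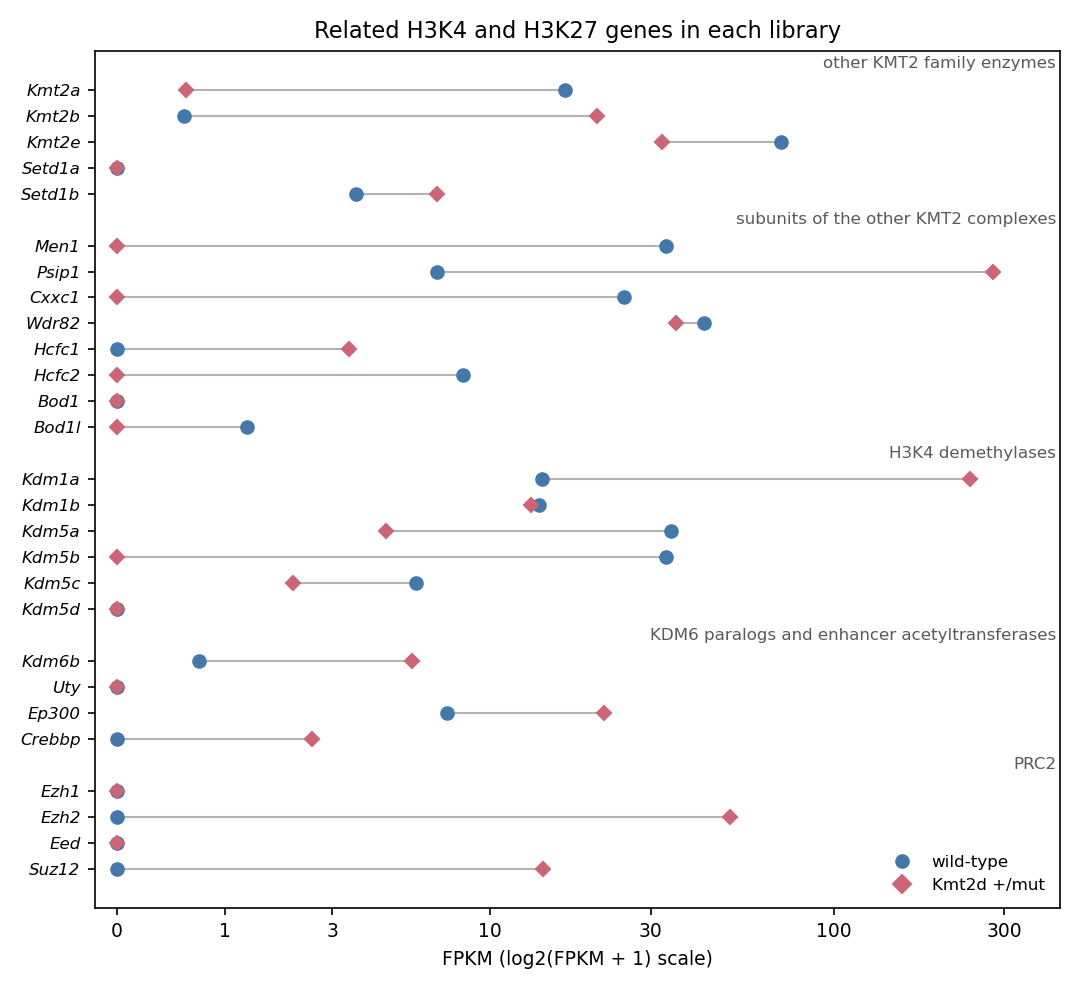
FPKM in wild-type (blue circles) and Kmt2d +/mut (red diamonds) of the 27 genes of the 5 related lists, on a log2(FPKM + 1) scale, with a grey line joining the values of each gene. Long lines run in both directions, as for Psip1 (6.87 to 279) and Kdm5a (34.3 to 4.67).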

How the data were processed

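RNA from sorted EdU-positive nuclei was sequenced after a modified Smart-seq2 protocol, per the labels' protocols. The submitters' processing notes name HISAT2, Cuffnorm, Cuffdiff and build mm10, and their versions, the annotation and settings are not stated there. The authors deposited gene-level FPKM and, as p-value and q-value, their own Cuffdiff test for each pair of 6 libraries. The 4 libraries matching no sample were not used. Of 24346 entries, 27 with a date for a name were left out. Ratios are Kmt2d +/mut over wild-type, and log2 ratios carry a pseudocount of 1, which understates the differences of low genes. Members and lists were chosen with earlier results of these data known. Named genes were the members, the top 2 of each related list by mean FPKM, any gene of those lists called in the authors' table and the 3 genes nearest Kmt2d.

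Fragments were estimated from genes with 1 transcript over 800 bases (GENCODE M21), with 190 bases taken off each length. With this, 80.6% of 98 low values in wild-type nuclei and 78% of 82 in Kmt2d +/mut lay within 0.1 of a whole fragment. Intervals are exact Poisson, exact binomial for ratios and conditional odds ratios between genes (scipy 1.17.1), and none is given for a listed 0. The labels describe no strand marking.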

Additional observations from a re-analysis of the deposited data

How the results depend on the processing

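For the 6 members above 0 in both libraries, all 24 log2 ratios under other pseudocounts and scalings kept their direction and moved by less than the counting error. That of Kmt2d ran from -0.56 to -0.37 about the -0.54 reported. Bringing the libraries to the same summed FPKM added up to 0.18 to a log2 ratio and moved the median of all genes from -0.23 to -0.05, and with it Kmt2c stood at -0.00041 and Paxip1 at -0.04. The median of the 9 members, -1.93, was -2.05 with a pseudocount of 0.1, -0.74 with 5, -1.76 at the same summed FPKM, -1.24 with no minimum or with a minimum of 10, -0.38 for members above 0 in both libraries and -3.04 for those the authors tested. Members at least 2-fold lower numbered 5, but 2 among those above 0 in both libraries and 2 among those tested, where 1 was within 2-fold against 3. For the 21 genes of the 5 related lists over the minimum, the median of -0.075 turned to 0.094 at the same summed FPKM, to 0.34 above 0 in both libraries and to 4.56 among those tested. Their counts of 9 lower and 9 higher became 4 and 5 above 0 in both and 1 and 3 among those tested. Those within 2-fold went from 3 to 8 with a pseudocount of 5, 9 with no minimum and 0 among those tested. Other pseudocounts and scalings kept the same 21 genes, whereas the other settings changed which genes entered. The cause of these shifts was not tested. Of 45 alternative fragment estimates, 8 left their counting interval, all with the median coding transcript length, which gave Kmt2d 76.9 and 51.6 fragments. No paired analysis was possible because each genotype had 1 library, and no library could be left out.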
